A study of Mus musculus with 4 samples.

Results

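The regional homeobox and Pax genes outside the Hox clusters are the Dlx, Lhx, Irx, Emx, Meis, Pbx, Pax, Pou and Nkx families of transcription factors and the sine oculis homologues (here Six2 to Six6). All array probes whose gene symbol begins with one of these family names and a number were taken, which gave 51 of 23473 probes on the array, for 51 of the 16446 genes that its symbols name. They comprised 6 Dlx, 8 Lhx, 6 Irx, 2 Emx, 1 Meis, 3 Pbx, 9 Pax and 9 Pou probes and 7 named for sine oculis homologues, and Nkx genes and Pou1f1 are not analysed here. Of the probes named for sine oculis homologues, Six3os1 is a noncoding RNA, and Six6os1 is a protein-coding gene that RefSeq lists under another name, so neither encodes a factor of the family. RNA labelled as dorsal raphe nucleus, the serotonergic nucleus of the midbrain and rostral hindbrain, was hybridised to 4 single-colour arrays, each with the RNA of 5 pooled males of the C57BL/6J strain, 10 weeks old. Compared were wild-type mice without stress (non-stressed WT), wild-type mice with stress (stressed WT), stressed D2R-KO mice, which lack the dopamine D2 receptor, and stressed D2LR-KO mice, which lack the long form of that receptor. Stressed mice swam by force for 6 min on each of 4 consecutive days, with tissue taken 12 h after the last swim. There was 1 array per group and no non-stressed knockout array, so a stressed knockout against non-stressed WT changes genotype and stress at once. With single arrays, values have no replicate error and differences no test, and precision is limited by the small number of arrays.

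These factors divide the embryonic nervous system into regions and give neurons their identity, and part of that regional pattern persists in the adult brain. Dlx factors specify GABA neurons of the ventral forebrain, Emx factors and Lhx2 pattern the cortex, and LIM-homeodomain factors of the Lhx family set neuron subtypes. Irx (Iroquois) genes are expressed in the developing diencephalon, midbrain, hindbrain and spinal cord. Pax2, Pax5 and Pax8 act at the midbrain-hindbrain boundary, and Pax3 and Pax7 in the dorsal neural tube and midbrain. Pbx and Meis proteins are TALE homeodomain cofactors of Hox proteins, and Pou proteins pair a POU-specific domain with a homeodomain.

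In RefSeq gene order, Dlx1 and Dlx2 are neighbours on chromosome 2, and Dlx5 and Dlx6 on chromosome 6, with 0 other protein-coding genes between the members of a pair. Irx1, Irx2 and Irx4 form 1 cluster on chromosome 13, and Irx3, Irx5 and Irx6 another on chromosome 8. The RefSeq promoter table (GRCm38.p6) held 48 promoters of 38 of the 51 genes. The 250 bases before the start of Dlx1, Lhx2 and Irx2 are shown because these genes differed by 1.5-fold or more from non-stressed WT in both knockouts. All are on the plus strand, at chr2:71529195-71529444 for Dlx1, chr2:38339031-38339280 for the more upstream of 2 Lhx2 starts and chr13:72628570-72628819 for Irx2. Capitals mark GGGCGG, a GC box, read on either strand.
Dlx1: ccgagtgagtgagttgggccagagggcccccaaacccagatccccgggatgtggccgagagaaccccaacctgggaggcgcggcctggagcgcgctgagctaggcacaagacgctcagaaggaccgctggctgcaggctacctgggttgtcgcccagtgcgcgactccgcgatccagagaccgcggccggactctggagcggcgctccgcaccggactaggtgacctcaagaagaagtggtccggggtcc
Lhx2: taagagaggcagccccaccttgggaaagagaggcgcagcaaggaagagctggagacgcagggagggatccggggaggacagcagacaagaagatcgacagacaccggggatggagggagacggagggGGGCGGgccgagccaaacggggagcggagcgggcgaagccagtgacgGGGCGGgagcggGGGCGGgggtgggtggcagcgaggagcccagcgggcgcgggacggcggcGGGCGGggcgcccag
Irx2: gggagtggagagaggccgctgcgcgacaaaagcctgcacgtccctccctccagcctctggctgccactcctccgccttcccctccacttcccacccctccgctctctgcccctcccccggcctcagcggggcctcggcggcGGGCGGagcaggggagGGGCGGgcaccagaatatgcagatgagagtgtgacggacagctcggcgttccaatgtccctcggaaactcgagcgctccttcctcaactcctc

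Both strands were searched for GGGCGG, for the homeodomain core TAATTA and for the TATA-box sequence TATAAA. This Lhx2 promoter held 4 GC boxes and that of the other Lhx2 start 0, while the Irx2 promoter held 2 and the Dlx1 promoter 0. GGGCGG was present in 64.6% of 48 member promoters and in 32.7% of all 32851 promoters of this length. TAATTA was present in 0 of the 48 member promoters and in 4.84% of all promoters, and TATAAA in 2 and in 12.4%. The median GC content was 62.4% in the member promoters and 52.4% in all, and the shares were not matched on it.

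Spots counted as detected when more than 2 SD brighter than the average blank spot, and 91.0% to 91.6% of gene probes on an array were. Of the 51 member probes, 46 were detected on all 4 arrays and the other 5 (Dlx3, Pax1, Pax4, Pou2f3 and Six4) on 1 to 3 arrays. Most members were dim. The authors' deposited intensities are scaled to an array median of 25, and 16 to 20 of the 51 members reached that level on an array. The stressed WT array stood apart, with correlations of 0.959 to 0.966 with the other arrays over 16624 probes with a gene symbol, while the other 3 correlated at 0.990 to 0.994. For positive controls spotted repeatedly, log2 differences between arrays had an SD of 0.097 to 0.227, a spot error that leaves out mice and labelling. These controls were bright, with median spots of 3890 to 13100 on the stressed arrays, where the median gene spot of an array was 67.1 to 80.1. Their SD therefore does not give the error of dim members. Log2 differences below are of signal plus 50, a scale that compresses differences of dim genes; deposited intensities are therefore printed beside them. A probe was counted as higher or lower at 1.5-fold (0.58 on the log2 scale) if detected on at least 1 of the arrays compared.

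Against non-stressed WT, the forebrain factors Dlx1 and Lhx2 were lower on both knockout arrays and Irx2 was higher. Lhx2 was also lower in stressed WT (-0.78), and with the background read around each spot it was at -0.34 in D2R-KO and 0.06 in D2LR-KO, under 1.5-fold in both. In stressed D2R-KO, 3 of 50 members compared were at least 1.5-fold lower (6%), where 1.47% of all 15825 probes compared were, and 1 was higher (2%), where 0.575% of all were. The lower members were Dlx1, Lhx2 and Pax9, and the higher one was Irx2. In stressed D2LR-KO, 3 of 50 were lower (6%, against 1.39% of all probes), namely Dlx1, Lhx2 and Lhx9, and 1 was higher (2%, against 0.735%), again Irx2. Past 2-fold there were Dlx1 and Lhx2 in each knockout (4%, against 0.316% of all probes in D2R-KO and 0.304% in D2LR-KO) and no higher member, where 0.114% and 0.108% of all probes were higher. The members nearest the 1.5-fold line in D2R-KO were Pax9 (-0.68) and Irx2 (0.76) inside it and Emx2 (-0.57) and Irx5 (0.52) outside. In D2LR-KO they were Lhx9 (-0.65) and Irx2 (0.96) inside and Pbx3 (0.46) and Irx5 (0.43) outside. The 2 comparisons share the non-stressed WT array, so a value that is extreme on that array enters both.

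**Figure D1:**
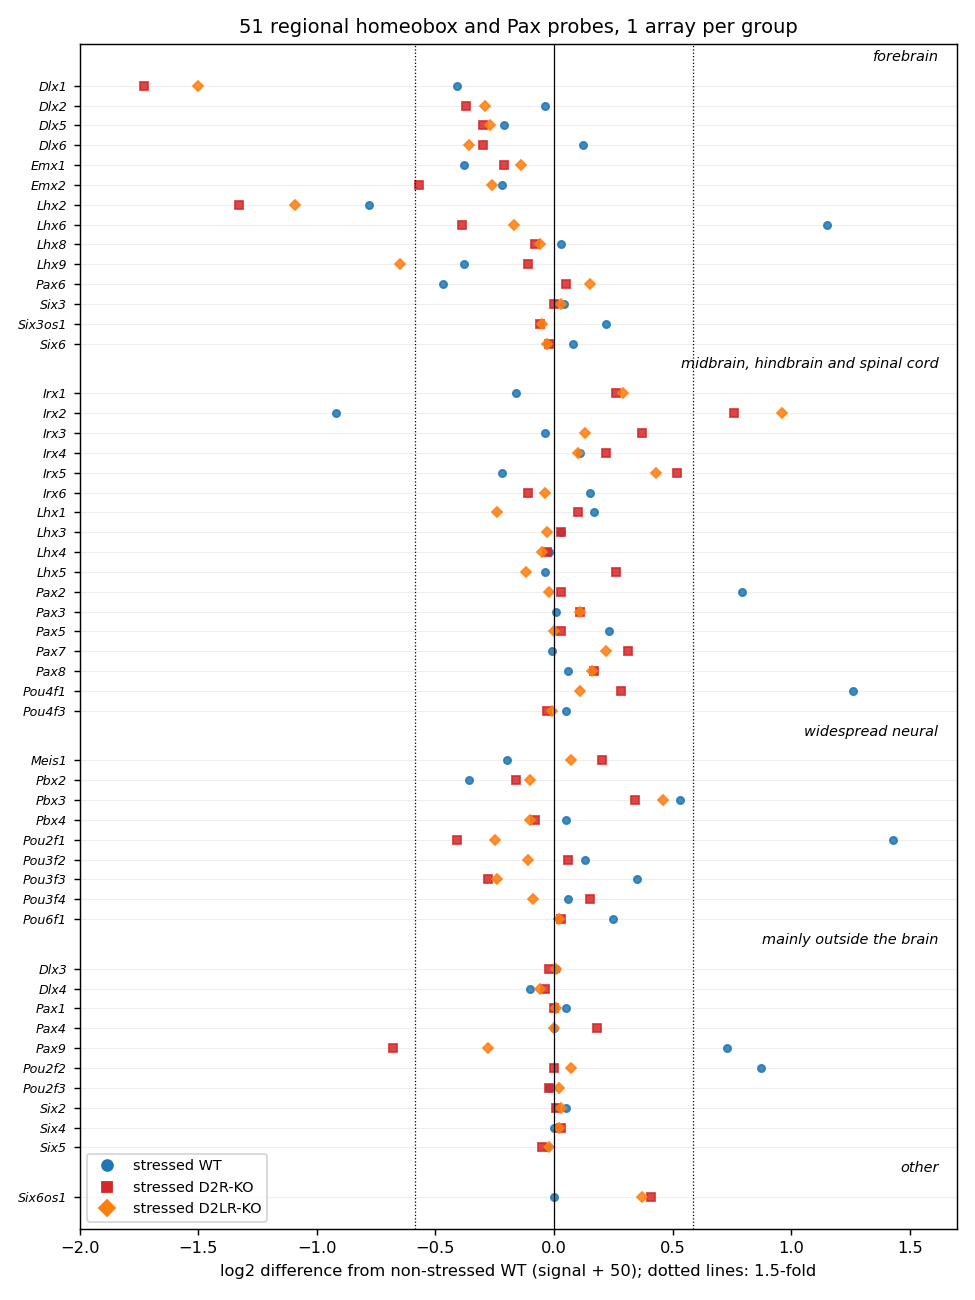
Log2 difference from non-stressed WT (horizontal axis, signal plus 50) for each of the 51 member probes (rows, by group) on the stressed WT (circles), stressed D2R-KO (squares) and stressed D2LR-KO (diamonds) arrays, with dotted lines at 1.5-fold. Dlx1 and Lhx2 lie left of the line on both knockout arrays and Irx2 right of it, while Pou2f1, Pou4f1 and Lhx6 lie far to the right on the stressed WT array only.

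Dlx1 (probe M200001802), a factor of forebrain GABA interneurons, had deposited intensities of 116.0 unstressed and 69.9 stressed in WT, and 13.5 for D2R-KO and 21.1 for D2LR-KO. Both knockout arrays lay below both WT arrays. The log2 difference from non-stressed WT was -1.73 in D2R-KO (3.32-fold lower) and -1.50 in D2LR-KO (2.83-fold lower), against -0.41 in stressed WT. Under the 5 other ways of making signal it ranged from -2.40 to -1.43 in D2R-KO and from -2.0 to -1.41 in D2LR-KO.

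The neighbouring Dlx2 (probe M200001491), which acts with Dlx1 in the same progenitors, had intensities of 11.3 unstressed and 11.1 stressed in WT, and 2.3 for D2R-KO and 4.1 for D2LR-KO. Dlx5 (probe M300006843), which follows Dlx1 and Dlx2 in the interneuron lineage, read 8.7, 4.2, 1.7 and 2.3 on those arrays, likewise ordered. For Dlx6 (probe M400001195), the neighbour of Dlx5, they were 14.3, 18.4, 6.0 and 4.6. Each of these 3 genes was thus dimmer on both knockout arrays than on both WT arrays, and every value was below the array median of 25. Their log2 differences from non-stressed WT ran from -0.37 to -0.27 and did not reach 1.5-fold. As plain ratios of deposited intensity, non-stressed WT over D2R-KO was 8.59 for Dlx1, 4.91 for Dlx2, 5.12 for Dlx5 and 2.38 for Dlx6. Non-stressed WT over D2LR-KO was 5.50, 2.76, 3.78 and 3.11 in the same order of genes. The spots behind the lower values were close to the blank spots, with a Dlx5 spot of 41.1 in D2R-KO over a detection limit of 39.5, so these ratios are imprecise. With an offset of 16 in place of 50, Dlx2, Dlx5 and Dlx6 passed 1.5-fold in both knockouts, at -0.84, -0.73 and -0.61 in D2R-KO and at -0.62, -0.64 and -0.75 in D2LR-KO. That offset gave 7 lower and 5 higher members in D2R-KO (2.7% and 1.36% of all probes) and 6 lower and 3 higher in D2LR-KO (2.34% and 1.6%). With the background taken around each spot, Dlx6 was at only -0.05 and -0.03. The remaining Dlx genes act mainly in skin, bone and placenta. Dlx4 had intensities of 4.3 to 5.9 on the 4 arrays with no order by group, and Dlx3 was not detected in D2R-KO and lay between 0.9 and 1.2 elsewhere.

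**Figure D2:**
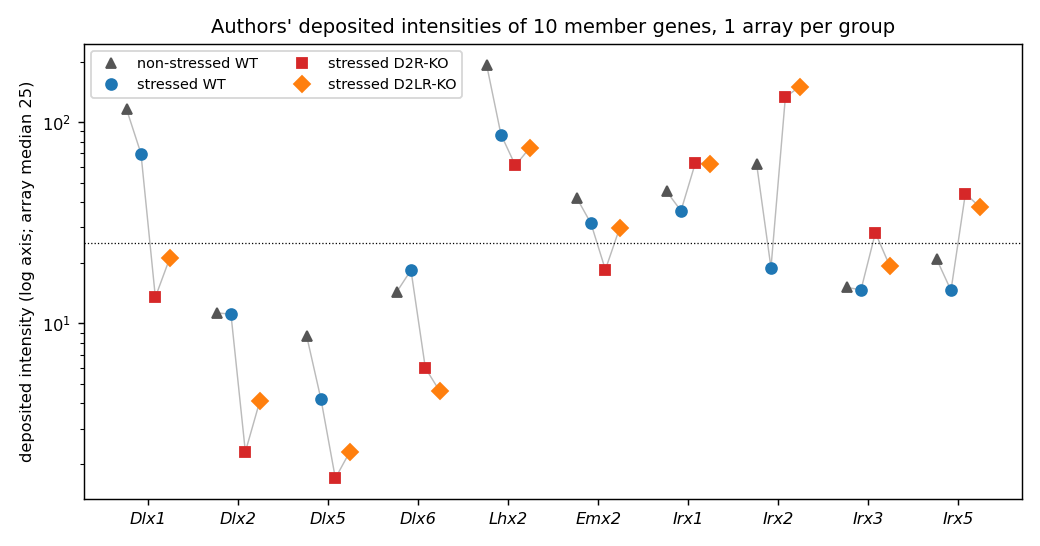
Authors' deposited intensity (vertical log axis, array median 25 as a dotted line) of 10 member genes on the 4 arrays (triangles non-stressed WT, circles stressed WT, squares D2R-KO, diamonds D2LR-KO), with thin lines joining the values of a gene. Dlx1, Dlx2, Dlx5, Dlx6, Lhx2 and Emx2 are lowest on knockout arrays, with Emx2 at 29.9 in D2LR-KO against 31.4 in stressed WT, and Irx1, Irx2, Irx3 and Irx5 are highest there.

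Lhx2 (probe M200009425), a selector of cortex and hippocampus, had intensities of 193.3 unstressed and 86.9 stressed in WT, and 61.0 for D2R-KO and 74.6 for D2LR-KO. All 3 stressed arrays were below the unstressed one, with both knockouts lowest. Log2 differences from non-stressed WT were -0.78 for stressed WT and, for the knockouts, -1.33 (D2R-KO) and -1.09 (D2LR-KO). This gene depended on the background. With the brightness around each spot taken as its (local) background, the difference was -0.18 for stressed WT, -0.34 for D2R-KO and 0.06 for D2LR-KO, and none reached 1.5-fold.

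Emx2, a cortical patterning factor, had intensities of 42.2, 31.4, 18.5 and 29.9 in the order WT unstressed, WT stressed, D2R-KO and D2LR-KO. Its log2 difference of -0.57 in D2R-KO was just short of 1.5-fold, and that in D2LR-KO was -0.26. Emx1, which marks cortical excitatory progenitors, was lowest in stressed WT, at 8.6, with 18.8 in non-stressed WT, and 12.1 and 14.2 in D2R-KO and D2LR-KO. Lhx9, which acts in diencephalon and other developing regions, had intensities of 32.8, 18.5, 28.5 and 9.8, and was lower in D2LR-KO (-0.65, or -0.37 with local background) but at -0.11 in D2R-KO. Lhx6, a factor of cortical interneurons downstream of ventral forebrain patterning, had intensities of 216.3, 411.6, 170.8 and 189.7 and stood out on the stressed WT array only. Pax6, an eye and forebrain factor that also acts in hindbrain progenitors, was lowest in stressed WT (24.7) and lay between 45.6 and 53.6 on the other arrays. Lhx8, which specifies basal forebrain cholinergic neurons, lay at 2.0 to 5.1, and the eye-field factors Six3 at 3.2 to 4.7 and Six6 at 3.7 to 7.2. Six3os1 had 8.6 to 17.6, highest in stressed WT.

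Of the 14 forebrain members (Dlx1, Dlx2, Dlx5, Dlx6, both Emx genes, Lhx2, Lhx6, Lhx8, Lhx9, Pax6, Six3, Six6 and Six3os1), 2 were at least 1.5-fold lower in D2R-KO (1.47% of all probes were) and 3 in D2LR-KO (1.39% of all). In neither knockout was 1 of them higher, where 0.575% and 0.735% of all probes were. Their median log2 difference from non-stressed WT was -0.25 in D2R-KO and -0.22 in D2LR-KO, beside 0.00 over all probes in each. Some markers of forebrain neurons were lower as well. Of 10 measured marker probes, 5 were at least 1.5-fold lower in D2R-KO and 4 in D2LR-KO, and 0 were higher. The lower ones were Itpka (-2.72 in D2R-KO and -1.19 in D2LR-KO), Icam5 (-1.74 and -1.12), Nrgn (-1.07 and -0.98) and Neurod6 (-0.99 and -1.11). Camk2a (-0.67) was lower in D2R-KO only. In stressed WT, Icam5 was lower as well (-1.46) and Nrgn was higher (1.12). Markers not past 1.5-fold in either knockout included Ppp1r1b (0.13 in D2R-KO and 0.15 in D2LR-KO) and Rgs9 (0.07 and 0.01). Drd1 (-0.07 and -0.10) and Tbr1 (-0.16 and -0.19) were also among them. The summed deposited intensity of that list was 2192.7 unstressed and 2047.3 stressed in WT, and 963.8 for D2R-KO and 1168.8 for D2LR-KO, and no measured marker of it was at 0. Their part in the member results was not tested. In pooled tissue, fewer cells of a type and less RNA per cell cannot be told apart.

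Irx2 (probe M200006213), an Iroquois factor, had intensities of 62.2 unstressed and 18.9 stressed in WT, and 133.5 for D2R-KO and 150.2 for D2LR-KO. Both knockout arrays were above both WT arrays, and the stressed WT array was lowest. The log2 difference from non-stressed WT was 0.76 in D2R-KO and 0.96 in D2LR-KO (1.69-fold and 1.95-fold higher), and -0.92 in stressed WT. Under the 5 other ways of making signal it ranged from 0.79 to 0.91 in D2R-KO and from 0.83 to 1.15 in D2LR-KO.

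Irx5, of the other cluster, had intensities of 20.9 unstressed and 14.6 stressed in WT, and 44.2 for D2R-KO and 37.9 for D2LR-KO, with both knockouts above both WT arrays. Its log2 differences from non-stressed WT were 0.52 and 0.43, short of 1.5-fold, and 0.15 and 0.07 with the background around each spot. Irx1 followed the same order of groups, with intensities of 45.3, 36.3, 62.8 and 62.0. Its differences of 0.26 and 0.29 were -0.01 and -0.21 when the background was read around each spot. Irx3 had 15.1, 14.7, 28.2 and 19.3, with differences of 0.37 in D2R-KO and 0.13 in D2LR-KO, the latter turning to -0.05 in that setting. Irx4 showed no order by group, at 10.9, 14.8, 17.4 and 13.5. Irx6 ran the other way from Irx2, at 9.1, 14.3, 6.3 and 8.0, with both knockouts lowest by at most 0.26. Of the 6 Irx probes, 1 was at least 1.5-fold higher in each knockout (0.575% of all probes in D2R-KO, 0.735% in D2LR-KO) and 0 were lower (1.47% and 1.39% of all). The medians were 0.31 in D2R-KO and 0.21 in D2LR-KO, beside 0.00 over all probes.

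Pax7, a factor of the dorsal midbrain, had intensities of 2.9 unstressed and 3.4 stressed in WT, and 10.5 for D2R-KO and 8.1 for D2LR-KO. It was brighter on both knockout arrays, at 0.31 and 0.22 on the log2 scale, short of 1.5-fold, and all its values were below the array median of 25. Pax3, its paralog, was at 1.4, 2.1, 3.8 and 3.9, and Pax8 at 3.8, 6.1, 7.9 and 7.8, also with both knockouts highest and with differences of at most 0.17. Pax5 (1.9, 8.1, 2.6 and 1.9) and Pax2 (30.2, 65.8, 31.8 and 29.1) stood out in stressed WT only. Lhx1, a factor of Purkinje cells and other hindbrain and midbrain neurons, lay at 39.7 to 61.2, and its partner Lhx5 at 15.6 to 29.6, both lowest in D2LR-KO. Lhx3 and Lhx4, which act in motor neurons and the pituitary, lay at 1.9 to 3.7 and 2.1 to 3.4. Pou4f3, a factor of inner-ear hair cells, lay at 4.3 to 7.1.

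Over the 17 members of the midbrain, hindbrain and spinal cord group (the 6 Irx genes, Pax2, Pax3, Pax5, Pax7, Pax8, Lhx1, Lhx3, Lhx4, Lhx5, Pou4f1 and Pou4f3), 1 was higher in each knockout, again Irx2, and 0 were lower. Of all probes, 0.575% were higher and 1.47% lower in D2R-KO, and 0.735% and 1.39% in D2LR-KO. The median log2 difference from non-stressed WT was 0.17 in D2R-KO and 0.10 in D2LR-KO, beside 0.00 over all probes. Pons and medulla markers, which include Hox genes, had 2 of 8 measured probes higher and 0 lower in each knockout. The summed intensity of that list was 92.2 unstressed and 38.5 stressed in WT, and 446.2 for D2R-KO and 239.1 for D2LR-KO, and most of it in D2R-KO was Slc6a5, the neuronal glycine transporter, at 231.9 there, 53.2 in D2LR-KO and 3.0 in non-stressed WT. Phox2a of this list was detected in D2R-KO only, at 1.4. Markers of serotonergic neurons, which check the labelled nucleus, had 4 of 9 higher in D2R-KO and 3 in D2LR-KO, with summed intensities of 2619.2, 2175.9, 3745.2 and 3911.4 in the order WT unstressed, WT stressed, D2R-KO and D2LR-KO. Most of each sum was Ddc (1562.6, 1119.0, 1735.3 and 2253.8) and Slc18a2 (702.5, 718.1, 1197.8 and 1132.7). Tph2, the serotonin-synthesis enzyme of neurons, was at 31.4 and 10.7 on the WT arrays and at 264.6 and 151.5 on the knockout arrays. Slc6a4, the serotonin transporter, was at 11.6 and 6.8 in WT and at 89.6 and 43.5 in the knockouts. Markers of that list short of 1.5-fold in both knockouts included Ddc, with log2 differences of -0.05 in D2R-KO and 0.45 in D2LR-KO. Maob (-0.10 and -0.23) and Htr1a (0.11 and -0.18) were also among them. Midbrain markers had 0 of 8 higher in either knockout and 1 lower in D2R-KO, with summed intensities of 1517.1, 1728.4, 1192.7 and 1385.7. The part of these markers in the Irx and Pax values was not tested.

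Against the stressed WT array the counts were larger for members and for all probes alike. In D2R-KO, 8 of 50 members were at least 1.5-fold lower (16%, against 8.58% of 15878 probes) and 2 higher (4%, against 9.23%). In D2LR-KO, 8 were lower (16%, against 8.13%) and 3 higher (6%, against 8.64%). Both lower sets consisted of Dlx1, Lhx6, Pax2, Pax9, Pou2f1, Pou2f2, Pou3f3 and Pou4f1, and the higher ones were Irx2 and Irx5, joined by Pax6 in D2LR-KO. Irx2 was at 1.68 in D2R-KO and 1.88 in D2LR-KO, Pou2f1 at -1.84 and -1.68, Lhx6 at -1.54 and -1.31, and Dlx1 at -1.32 and -1.09. Pax9 was at -1.41 and -1.01, Pou4f1 at -0.97 and -1.14, Pou2f2 at -0.87 and -0.80, Pax2 at -0.76 and -0.81, and Pou3f3 at -0.63 and -0.59. Irx5 was at 0.74 and 0.65, and Pax6 at 0.52 and 0.62. With local background, the values of Pou2f2 (-0.20 and -0.32), Pou3f3 (-0.56 and -0.50) and Irx5 (0.54 and 0.46) and that of Pax6 in D2LR-KO (0.36) were under 1.5-fold. Those of Pou3f3 were also under it with median scaling (-0.38 and -0.44) and in deposited values plus 25 (-0.46 in both). Past 2-fold, 4 members were lower in D2R-KO (8%, against 2.54% of all probes) and 5 in D2LR-KO (10%, against 1.8%), and Irx2 was higher in both (2%, against 2.7% and 2.58%). Lhx2, at -0.55 and -0.30, was not past 1.5-fold here. With an offset of 16, 11 were lower and 7 higher in D2R-KO (13.3% and 14.3% of all probes), and 9 lower and 6 higher in D2LR-KO (12.6% and 13.5%). These comparisons share the stressed WT array, and the members lower in them other than Dlx1 were brightest on it.

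Stressed WT against non-stressed WT compares mice of the same genotype with and without swimming. Here 6 of 49 members compared were at least 1.5-fold higher (12.2%, against 7.2% of 15867 probes) and 2 were lower (4.08%, against 8.04%). Past 2-fold, 3 were higher (6.12%, against 1.44%) and 0 were lower, where 2.12% of all probes were. An offset of 16 gave 7 higher and 6 lower, beside 11.6% and 12.9% of all probes. Pou2f1 (probe M400000942), a widespread octamer-binding factor, had intensities of 105.3 unstressed and 269.7 stressed in WT, and 75.9 for D2R-KO and 83.2 for D2LR-KO, and a difference of 1.43. Pou4f1 (probe M300019159), a factor of habenula, red nucleus and sensory neurons, had 72.3, 179.6, 100.7 and 79.7, and a difference of 1.26, which was 0.54 with the background around each spot. Lhx6 (probe M300005371), described above, differed by 1.15. In all 3 genes the stressed WT array was the brightest and the other 3 arrays were closer to each other.

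The other higher members were Pou2f2, an octamer factor best known from B cells, at 0.87 (0.42 with local background), Pax2 at 0.79 and Pax9 at 0.73. Pou2f2 had intensities of 45.7 unstressed and 94.5 stressed in WT, and 47.5 for D2R-KO and 49.1 for D2LR-KO. The B-cell markers measured (3 probes) had summed intensities of 24.3, 42.1, 23.8 and 24.9 in the same order, with 0 of 3 past 1.5-fold, and their part in the Pou2f2 value was not tested. Pax9 (probe M300000199), a factor of pharyngeal pouches, teeth and vertebrae, had intensities of 732.9, 969.2, 511.6 and 630.3. It was the brightest member on every array, and whether its probe reads Pax9 RNA alone was not tested. Its difference of 0.73 in stressed WT was 0.18 with median scaling, 0.39 in deposited values plus 25 and 1.97 with local background. The lower members were Irx2 at -0.92 and Lhx2 at -0.78, and Pbx3 (0.53) and Pax6 (-0.47) lay just outside the line. Of the 9 Pou probes 3 were higher and 0 lower, where 7.2% and 8.04% of all probes were, with a median of 0.25, beside 0.00 over all probes.

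Of the 9 widespread neural members (Meis1, the Pbx genes, Pou2f1, Pou3f2, Pou3f3, Pou3f4 and Pou6f1), 0 passed 1.5-fold in either knockout against non-stressed WT, where 0.575% of all probes were higher and 1.47% lower in D2R-KO, and 0.735% and 1.39% in D2LR-KO. Their medians were 0.03 in D2R-KO and -0.10 in D2LR-KO. With local background, Pou2f1 passed the line as lower in both (-0.67 and -0.59) and Pbx3 as higher in D2R-KO (0.74). Pbx3 was brightest on the stressed arrays, with intensities of 93.4 unstressed and 125.8 stressed in WT, and 134.2 for D2R-KO and 140.4 for D2LR-KO, and differences of 0.53, 0.34 and 0.46. Meis1, a TALE cofactor, was dim, at 5.1, 1.1, 10.2 and 6.7, with the lowest value in stressed WT. Pbx4 lay at 184.0 to 219.8 and Pbx2 at 6.1 to 15.1. The neural Pou factors Pou3f2 (16.5 to 25) and Pou3f4 (25.2 to 35.9) had no difference above 0.24 in size in any comparison. Pou3f3 had 76.3, 91.6, 59.7 and 59.5, and Pou6f1 6.3, 13.8, 7.0 and 6.9.

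Of the 10 members that act mainly outside the brain, 1 was lower in D2R-KO (1.47% of all probes were) and 0 in D2LR-KO (1.39% of all). That was Pax9, at -0.68 (0.46 with local background and -0.50 in deposited values plus 25). Pax1, Pax4, Pou2f3, Six2, Six4 and Six5 had intensities of 4.3 or less where they had a value, and Pax4 was detected in D2R-KO only. Six6os1, a meiosis gene beside Six6, had intensities of 16 unstressed and 16.8 stressed in WT, and 31.2 for D2R-KO and 29.4 for D2LR-KO. Both knockouts were above both WT arrays, with differences from non-stressed WT of 0.41 and 0.37, short of 1.5-fold.

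Between D2LR-KO and D2R-KO, 0 of 51 members passed 1.5-fold, and of 15825 probes only 0.657% were higher in D2LR-KO and 0.335% lower, so the count says nothing particular about the members. At 2-fold there were again 0, against 0.145% and 0.0506% of all probes. Lhx9 was farthest, at -0.55, followed by Pax9 at 0.39 and Lhx5 at -0.38. With an offset of 16, Lhx9 (-0.95) and Lhx5 (-0.62) passed the line as lower, where 0.613% of all probes did and 1.28% did as higher. Dlx1 differed by 0.23, Lhx2 by 0.25 and Irx2 by 0.20.

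**Figure D3:**
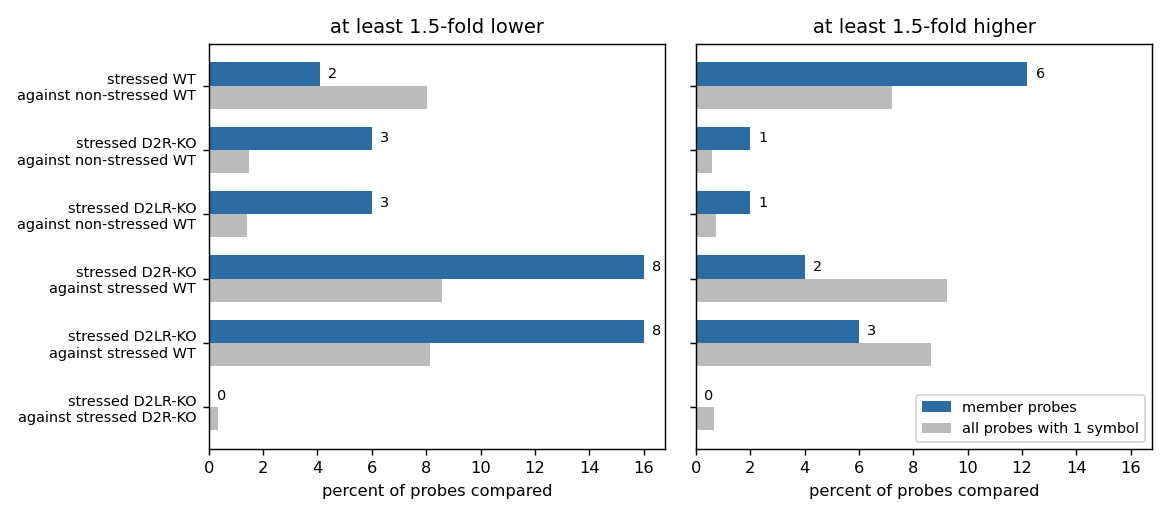
Share of probes at least 1.5-fold lower (left) and higher (right) in each of the 6 comparisons, as a percent of the probes compared, for members (blue, with their number) and for all probes with 1 gene symbol (grey). The members exceed the grey bars on the lower side in the 4 comparisons of a knockout with a WT array. On the higher side they exceed them in each comparison with non-stressed WT, by 1 member in each knockout. Between the knockouts 0 members pass.

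Set by order alone, both knockout arrays lay below both WT arrays for 17 of 51 members (33.3%) and above both for 12 (23.5%). The shares over all 16100 probes detected on some array were 19.5% and 19.8%. The 12 include Pax4 and Six4, which were not detected on either WT array and had gaps of 0.00 and 0.01, so their order is not a measured one. Most of these gaps were small, and with a gap of at least 1.5-fold only Dlx1 was below (0.354% of all probes) and only Irx2 above (0.118% of all). In deposited intensity, both knockouts were at least 2-fold below both WT arrays for Dlx1, Dlx2 and Dlx6 (3 of 46 members detected on all arrays, 6.52%, against 0.329% of 14902 probes). They were at least 2-fold above both for Irx2 and Pax7 (2 of 46, 4.35%, against 0.235%). All values of Dlx2, Dlx6 and Pax7 were below the array median of 25, where plain ratios are imprecise. The shares of members and of all probes were not matched on brightness. This order sets 2 stressed arrays against 1 stressed and 1 non-stressed array and was chosen after values had been seen.

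Partners and cofactors of these families were read from a separate list, of which 46 probes were measured. Against non-stressed WT, 0 were at least 1.5-fold higher in either knockout, where 0.575% of all probes were in D2R-KO and 0.735% in D2LR-KO. In D2R-KO 4 were lower (1.47% of all probes were) and in D2LR-KO 2 (1.39% of all). The medians were -0.02 and -0.04, beside 0.00 over all probes. The lower genes were Neurod1 (-1.34 in D2R-KO and -0.68 in D2LR-KO) and Neurod6 (-0.99 and -1.11), factors of excitatory forebrain neurons, and in D2R-KO Fezf2 (-0.75), which specifies deep-layer cortical neurons, and Lmo4 (-0.80), a LIM-only protein. The cortical path held 3 of these in D2R-KO among its 9 probes, with a median of -0.40, and -0.18 in D2LR-KO.

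Of the 9 probes on the Dlx path of forebrain interneurons, 0 passed 1.5-fold against non-stressed WT in either knockout, unlike Dlx1, and the medians were 0.02 in D2R-KO and -0.06 in D2LR-KO. Of all probes, 0.575% were higher and 1.47% lower in D2R-KO, and 0.735% and 1.39% in D2LR-KO. Gad2, a GABA-synthesising enzyme, had intensities of 504.4 unstressed and 300.8 stressed in WT, and 591.1 for D2R-KO and 358.2 for D2LR-KO. Slc32a1, the vesicular GABA transporter, had 392.5, 430.0, 624.4 and 354.6. Both are shared by GABA neurons of the whole brain. The 4 cofactors of Pbx and Meis and the 6 Groucho corepressor probes had 0 past 1.5-fold in either knockout against non-stressed WT, as had the 6 Eya and Dach cofactors. Of 12 LIM-factor partners, Lmo4 in D2R-KO was the 1 past it. In stressed WT, 6 of 46 partner probes were higher and 1 lower, where 7.2% and 8.04% of all probes were. Dach1, a transcriptional cofactor, was at 1.01, Sox6 at 0.95, Ssbp3 at 0.74, Cux1 at 0.73, the Groucho gene Tle5 at 0.71 and Maf at 0.64, and Neurod1 was at -1.70.

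Other tissue markers also differed between arrays. Of all probes, 7.2% were at least 1.5-fold higher than in non-stressed WT and 8.04% lower in stressed WT. These shares were 0.575% and 1.47% in D2R-KO, and 0.735% and 1.39% in D2LR-KO. Pituitary markers had summed intensities of 149.4 unstressed and 258.4 stressed in WT, and 645.6 for D2R-KO and 159.6 for D2LR-KO, with 3 of 9 higher in D2R-KO. Prl was at 156.3 there and had no value in stressed WT, and Tshb was not detected on any array. Lhx3, Lhx4 and Six6, members that also act in the pituitary, differed by at most 0.03 in size between D2R-KO and non-stressed WT. All were dim, at 2.4, 3.2 and 4.3 in non-stressed WT and 3.1, 2.6 and 4.1 in D2R-KO. At such levels the scale compresses differences, so the small size says little about these genes. Choroid plexus markers had summed intensities of 13164.2, 5842.5, 100.4 and 281.1, of which Ttr was 12884.0, 5720.2, 20.3 and 193.1, with 5 of 7 lower on each stressed array. Hypothalamic markers had 487.9, 737.8, 289.8 and 268.7, with 2 of 8 lower in each knockout. Oligodendrocyte markers had 13070.3, 13178.4, 17252.8 and 17462.4, with 3 of 7 higher in stressed WT and, among the knockouts, 0 in D2R-KO and 2 in D2LR-KO. The part of these tissues in the member values was not tested.

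**Figure D4:**
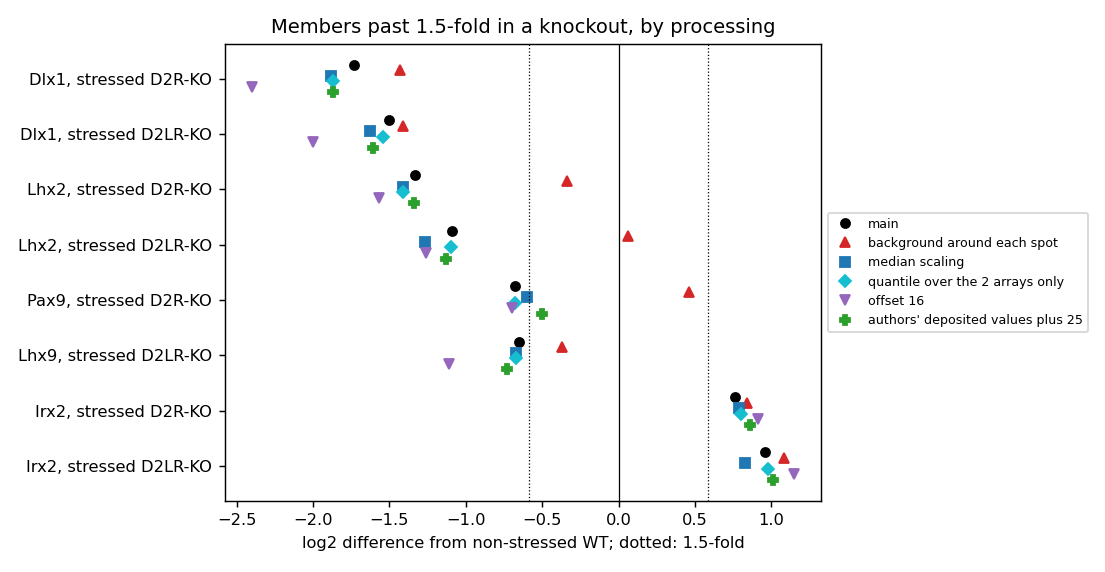
Log2 difference from non-stressed WT (horizontal axis) of the members past 1.5-fold in a knockout, under the setting reported (black circles) and 5 other settings (other symbols), with dotted lines at 1.5-fold. Dlx1 stays left of the line and Irx2 right of it in every setting drawn, while with the background around each spot Lhx2 in D2LR-KO lies at 0.06 and Pax9 in D2R-KO at 0.46.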

How the data were processed

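The data are 4 single-colour arrays, 1 per group, each of RNA pooled from 5 mice, so there was no test and no replicate spread. Per the labels, total RNA (RNeasy mini, Qiagen) was amplified to amino allyl aRNA and coupled to Cy5. Per the file headers, each scanner file holds, per spot, a median 635 nm intensity and that of its surround, combined from 3 scans and without background subtraction. The authors' deposited table holds intensity on a linear scale. From its values, each is a spot median less an array-wide constant, over an array-wide factor, with 1499 to 1540 values missing for the dimmest spots of an array. Software and steps behind it: not given in the sources used here.

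Spot medians were corrected by normexp with the 2736 blank spots as negative controls (limma 3.58.1, nec, offset 50, R 4.3.3), log2-transformed and quantile-normalized over all arrays. Other steps used Python 3.11.15, pandas 2.3.3 and numpy 2.4.6. Probes with an unusable spot (9) were left out. Symbols came from the series' probe table, in which 16631 of 23473 probes have 1 symbol, and all 51 members were kept as separate probes. By rule, members past 2-fold in any comparison and the Dlx genes are named with values on every array, members past 1.5-fold with their difference, and those nearest that line once per main comparison; other genes are named beside a member result. Missing deposited values were set to 0 in sums and alternatives. The alternatives were the background around each spot, median scaling, quantile normalization over the 2 arrays compared, an offset of 16, the authors' deposited values plus 25, and detection on both arrays, no detection filter, or a limit of 3 SD. The order of both knockouts against both WT arrays and the plain deposited ratios were added after seeing the data. The members, lists, groups and tests were chosen with earlier results of these data known. The procedure was tested on simulated data, in which changes larger than 1.5-fold were placed in brighter spots only. That test does not cover 1.5-fold calls on dim probes.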

Additional observations from a re-analysis of the deposited data

Results flagged for a closer look

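Irx2 and Pax9 were past 1.5-fold from non-stressed WT in opposite directions on stressed arrays of different genotype, a difference that was not tested. Irx2 was lower in stressed WT and higher in both knockouts, and the log2 gap reached 1.68 with D2R-KO and 1.88 with D2LR-KO. Pax9 was higher in stressed WT and lower in D2R-KO, with a gap of -1.41. The Pax9 directions depended on the processing. With local background both differences were positive, at 1.97 in stressed WT and 0.46 in D2R-KO. In deposited values plus 25 they were 0.39 and -0.50, both under 1.5-fold, and with median scaling the stressed WT difference was 0.18.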

How the results depend on the processing

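Of the 37 member differences past 1.5-fold, recomputed in 5 other settings, 183 of 185 values kept their direction, 21 of them under 1.5-fold, and 2 reversed. The settings were unequal in this. With the background around each spot only 23 of the 37 stayed past 1.5-fold, 12 fell under it and 2 reversed. In the other settings 33 to 37 stayed past it. Both reversals came with the background around each spot, where Lhx2 in D2LR-KO against non-stressed WT was at 0.06 and Pax9 in D2R-KO at 0.46. The cause was not tested. Of 96 recomputed counts of members, 82 stayed within 1.5 times the reported one. Of the other 14, 8 came with an offset of 16, which compresses dim probes less. It gave 6 lower members in stressed WT, 5 higher and 7 lower in D2R-KO, and 3 higher and 6 lower in D2LR-KO, all against non-stressed WT. It gave 7 higher in D2R-KO and 6 higher in D2LR-KO against stressed WT, and 2 lower in D2LR-KO against D2R-KO. The share of all probes was larger as well, for D2R-KO against non-stressed WT to 1.36% higher and 2.7% lower. The background around each spot gave 2 higher in each knockout against non-stressed WT and 1 higher in each against stressed WT. The authors' deposited values gave 2 higher in D2R-KO against non-stressed WT and 1 lower in D2LR-KO against D2R-KO. For local background and deposited values the share of all probes is not given here, so these counts cannot be set against it. No paired analysis was possible because each group has 1 array. Signal over background limits the dim members: only 16 to 20 members per array reached the array median.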
